A study of Mus musculus with 20 samples.

Results

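The 33 genes described here are mouse cytochrome P450 genes that act on drugs, toxins and steroids, together with Por, the reductase that passes electrons to them. The P450 genes come from families 1, 2 and 3 plus the steroidogenic Cyp17a1, and 29 other genes of families 1 to 3 were left out. All 33 genes were chosen by name among 21887 protein-coding genes, with earlier results of these data known. Their regions were the authors' deposited consensus intervals whose midpoint lay in the gene body or within 10 kb of it: 172 of 65776 H3K27ac intervals and 225 of 103014 H3K4me1 intervals. Livers were taken, flash-frozen, from male C57BL/6 mice aged 9 weeks after a 24-hour fast, which every group shared. Mice were of 4 genotypes: WT, that is wild type, a liver-specific deletion of Cpt2 (Cpt2 L-/-, here Cpt2 KO; the Cre driver is not given in the sources used here), a whole-body deletion of Ppara (Ppara -/-, here Ppara KO) and both deletions together (DKO). Chromatin immunoprecipitation with sequencing (ChIP-seq) measured H3K27ac, a mark of active enhancers and promoters, and H3K4me1, a mark of enhancers, in 2 livers per genotype, and H3K9ac, another mark of active promoters, in 1 WT and 1 Cpt2 KO liver. Cpt2 is the inner-membrane carnitine palmitoyltransferase of fatty acid oxidation, and Ppara is the nuclear receptor that fatty acids activate in fasting.

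Cytochrome P450 enzymes are heme proteins of the endoplasmic reticulum that insert an oxygen atom into their substrates, with electrons supplied by Por. Foreign compounds induce them through receptors: the aryl hydrocarbon receptor for the CYP1 genes, and the constitutive androstane and pregnane X receptors for many CYP2B, CYP2C and CYP3A genes. Many are also set by sex-specific growth hormone secretion and by position in the liver lobule. Most lie in tandem arrays of closely related copies.

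The promoters shown are those that lay wholly inside an H3K27ac interval whose enrichment differed between genotypes, so that a reader can see the sequence the acetylation covers. Each line gives the 250 bases before the transcription start, from RefSeq, build GRCm38.p6. Cyp2j5 is at chr4:96664120-96664369 on the minus strand, Cyp3a13 at chr5:137921620-137921869 on the minus strand, and Cyp2d26 at chr15:82794246-82794495 on the minus strand. Cyp2f2 is at chr7:27119705-27119954 on the plus strand, and the promoter of the downstream start of Cyp2c39 is at chr19:39510572-39510821 on the plus strand. Capitals mark matches, on either strand, to the TATA box core TATAAA, the nuclear receptor half-site AGGTCA and the forkhead core TGTTTAC.
Cyp2j5: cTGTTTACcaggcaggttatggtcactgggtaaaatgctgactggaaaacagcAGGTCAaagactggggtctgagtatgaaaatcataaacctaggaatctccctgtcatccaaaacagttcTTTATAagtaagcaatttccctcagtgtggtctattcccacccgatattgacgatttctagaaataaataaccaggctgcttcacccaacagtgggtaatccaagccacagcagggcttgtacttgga
Cyp3a13: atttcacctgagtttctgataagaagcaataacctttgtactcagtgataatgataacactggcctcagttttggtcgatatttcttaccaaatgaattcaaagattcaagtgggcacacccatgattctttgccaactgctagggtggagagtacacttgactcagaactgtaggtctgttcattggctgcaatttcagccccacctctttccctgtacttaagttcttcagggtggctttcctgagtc
Cyp2d26: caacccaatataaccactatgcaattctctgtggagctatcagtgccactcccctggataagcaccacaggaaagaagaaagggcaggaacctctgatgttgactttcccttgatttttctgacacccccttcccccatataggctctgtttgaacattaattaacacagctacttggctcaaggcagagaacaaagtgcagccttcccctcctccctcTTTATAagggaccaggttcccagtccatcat
Cyp2f2: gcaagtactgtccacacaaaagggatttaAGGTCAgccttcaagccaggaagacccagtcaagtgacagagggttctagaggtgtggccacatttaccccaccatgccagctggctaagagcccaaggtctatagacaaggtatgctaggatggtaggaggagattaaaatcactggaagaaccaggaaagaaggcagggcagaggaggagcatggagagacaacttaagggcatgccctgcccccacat
Cyp2c39: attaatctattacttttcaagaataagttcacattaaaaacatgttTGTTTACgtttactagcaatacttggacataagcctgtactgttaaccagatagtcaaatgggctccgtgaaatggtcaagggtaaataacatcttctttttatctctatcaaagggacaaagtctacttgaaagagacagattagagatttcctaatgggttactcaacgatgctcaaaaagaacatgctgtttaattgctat

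Promoters of 29 of the 33 genes were in the RefSeq table. Of these 29, 17 held TATAAA on either strand, against 12.4% of all 32851 promoter windows of the same length. The half-site AGGTCA was found in 9 of the 29 (14.0% of all windows) and TGTTTAC in 6 (3.17%). No member promoter held the perfect direct repeat AGGTCANAGGTCA, which contains the half-site at both ends and is a form of site that PPAR receptors bind (0.0335% of all windows), or the Stat5 core TTCNNNGAA (7.02%). GCGTG, the core bound by the aryl hydrocarbon receptor, was found in Cyp1a1, Cyp2b10 and Por (28.2% of all windows). The promoters are not independent of each other: 99.2% of the 250 bases were identical between Cyp2b9 and Cyp2b13, 98.0% between Cyp2a4 and Cyp2a5, and 84.8% between Cyp2d9 and Cyp2d10. How reads that map to several copies were treated is not given in the sources used here, so signal at such copies may be shared between them.

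Peak lists held 44454 to 48929 peaks per H3K27ac library and 61189 to 72151 per H3K4me1 library, and the depth in reads is unknown. Peak names carried the same animal numbers for both marks, so the 2 marks came from the same livers, and Ppara-null and Ppara-intact animals had numbers of different series. At Cpt2, the H3K27ac interval chr4:107901663-107903225 was called in all 4 livers with intact Cpt2 and in none of the 4 without it, and at Ppara the interval chr15:85807161-85809538 was called in the 4 Ppara-intact livers and in none of the 4 Ppara-null ones. These intervals lie 1538 and 1498 bases outside the gene bodies, so they do not check the deletions themselves. All 6 hepatocyte marker genes carried an H3K27ac peak in every library. Between 3 and 7 of the 7 Kupffer cell (liver macrophage) markers carried one, and no marker of that list lacked an interval. The summed highest fold of the Kupffer list was 21.1 to 22.5 for WT, 50.2 to 61.3 for Cpt2 KO, 25.9 to 32.6 for Ppara KO and 72.9 to 91.9 for DKO. That of the 6 sinusoidal endothelium markers was 76.4 to 81.8, 116 to 130, 84.4 to 95.3 and 123 to 129 in the same order. The stellate cell list (22 to 25.1, 41.2 to 45.7, 14.2 to 19.9 and 33 to 38.8; 2 to 5 of 6 genes, Col1a1 without an interval) and the lymphocyte list (27.9 to 37.9, 48.4 to 49.6, 35.5 to 37.0 and 49.9 to 50.1; 2 to 3 of 5 genes, Cd3e among those without an interval) followed. These 4 lists were higher in every Cpt2-null liver than in any Cpt2-intact one, and the Kupffer list was also higher in Ppara KO than in WT and in DKO than in Cpt2 KO. The cholangiocyte (bile duct cell) list was not: its sum was 12.5 to 19.7 for WT, 0 in both Cpt2 KO livers, 5.81 to 7.25 for Ppara KO and 6.69 to 9.57 for DKO, from at most 1 of 5 genes. The hepatocyte sum was 118 to 127 for WT and 120 to 122 for Cpt2 KO. It was 109 to 134 for Ppara KO and highest for DKO, at 145 to 166. In H3K4me1, the sums of the Kupffer, endothelial, stellate and lymphocyte lists overlapped between Cpt2 states. The lymphocyte list there had 5.17 to 9.29 for DKO and 13.2 to 15.5 for Ppara KO. The H3K27ac sums are not centred on the library median. In the centred gene means 0 of the 6 endothelial markers passed for Cpt2 loss in limma (3 unadjusted; lowest adjusted p = 0.0842), and Lyve1 differed by -0.35. Of the 7 Kupffer markers 3 could be tested, and C1qa passed as higher (0.53 ± 0.12, limma adjusted p = 0.0246). All 3 had an unadjusted p under 0.05 in limma, and their median difference was 0.53. Of the 6 hepatocyte markers only Serpina1a passed, as lower (-0.80 ± 0.14, limma adjusted p = 0.0124), and the median of that list was -0.11.

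H3K27ac was found near 30 of the 33 genes. Cyp2c40, Cyp3a16 and Cyp3a41a, 3 genes of the CYP2C and CYP3A arrays, had no interval. Of the 172 intervals, 53 (30.8%) were called in all 8 libraries, against 27.8% of all intervals, and these belonged to 23 genes. The remaining 7 genes, Cyp2a4, Cyp2b9, Cyp2b10, Cyp2b13, Cyp2c29, Cyp2c37 and Cyp2c70, had intervals called in some libraries only. Of the 172, 82 had their midpoint inside a gene body, 144 (83.7%) overlapped an H3K4me1 interval, and 7 belonged to 2 neighbouring members. Fold enrichment here is the authors' ratio of ChIP to input at a peak's summit.

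A gene's highest fold was taken over all its intervals, so it can rise with their number, which was 26 for Por and 1 for Cyp2c54. By mean of the highest fold over the 8 libraries, Por led with 30.4, followed by Cyp2d22 with 25.7 and Cyp1a1, an enzyme of polycyclic hydrocarbon metabolism, with 23.6. The Cyp1a1 value comes from an interval inside the neighbouring gene Edc3, and the other Cyp1a1 intervals called in all 8 libraries had mean folds of 6.71 to 9.48. The highest of the other subfamilies were Cyp2a12 with 19.4, Cyp3a13 with 18.8, Cyp2c39 with 18.7 and Cyp2e1, the ethanol-oxidizing enzyme, with 18.2. The Cyp2c39 intervals include an interval over the promoter of the neighbouring Cyp2c38. The lowest among the genes with a peak in every library was Cyp2c54 with 7.59. These are levels, and the 8 libraries include all 4 genotypes. The highest Cyp2d22 interval, chr15:82377440-82380288 in its body, had 22.1 and 27.3 for WT, 29.8 and 19.7 for Cpt2 KO, 22.7 and 28.5 for Ppara KO, and 23.8 and 32 for DKO. That of Cyp2a12, a steroid hydroxylase, had 17.7 and 16.5, 23.4 and 16.2, 15.7 and 26.2, and 13.4 and 26.2 in the same order. All genotypes overlapped at both. At the Cyp2e1 promoter, the interval chr7:140753077-140769573 had folds of 15.9 and 17.2 for WT, 23.3 and 20.2 for Cpt2 KO, 17.5 and 15.8 for Ppara KO, and 13.9 and 21.5 for DKO. Its log2 difference was -0.19 ± 0.15 (SE) for Ppara loss (limma adjusted p = 0.49) and -0.04 ± 0.15 for Cpt2 loss (limma adjusted p = 0.88).

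**Figure D1:**
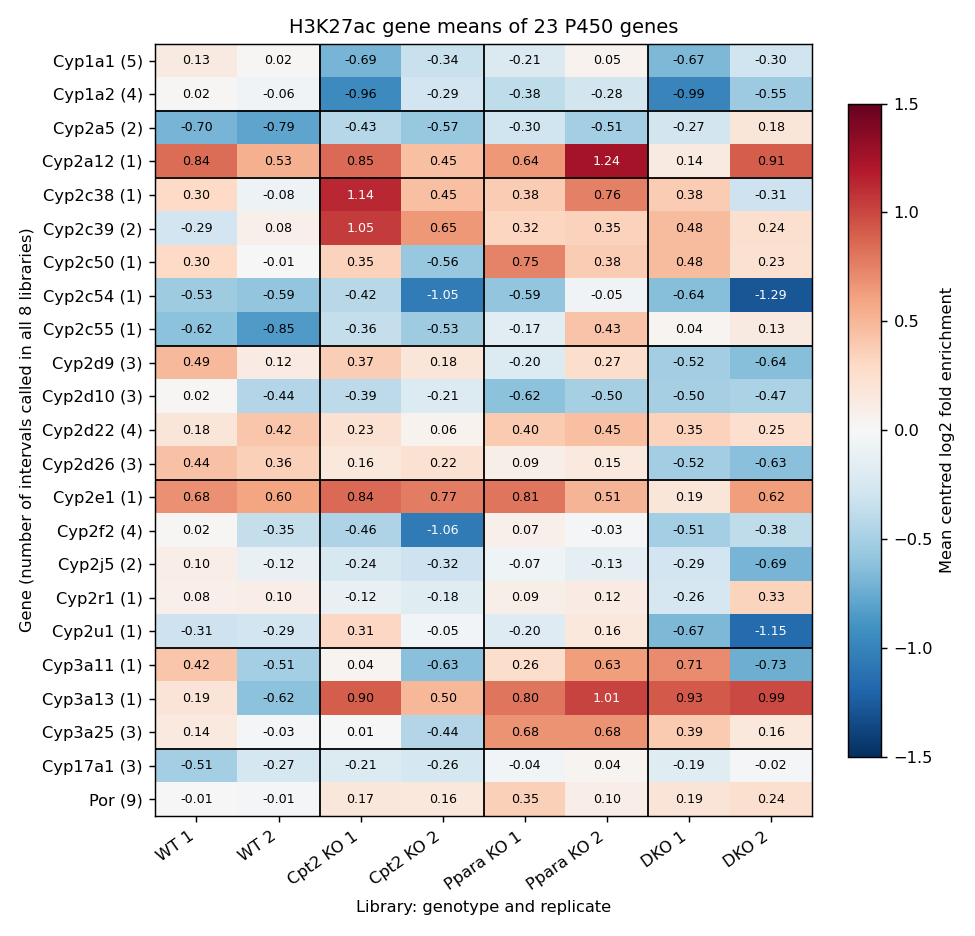
Mean centred log2 fold of H3K27ac for the 23 genes with an interval called in all 8 libraries (rows, grouped by subfamily; in brackets the number of intervals averaged) in each library (columns); red is above and blue below the library median. Cyp3a25 is above 0 in the 4 Ppara-null livers, and the CYP1 genes are lowest in Cpt2 KO replicate 1 and DKO replicate 1.

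Ppara-null livers (Ppara KO and DKO) were compared with Ppara-intact livers (WT and Cpt2 KO), 4 against 4, to ask where acetylation differed without the receptor. The series of animal numbers differed between the same groups, so series and Ppara state cannot be told apart. H3K27ac fell near 4 genes, led by Cyp2d9, and rose near 5 others, of which 2 were CYP3A genes. In all, 9 of the 53 intervals passed a limma adjusted p of 0.05, against a background of 7.34% of all 18281 intervals tested. The 5 higher intervals compare with 3.19% of all intervals and the 4 lower ones with 4.15%. The median difference over the 53 was 0.10 on the log2 scale, against -0.01 over all intervals. Called intervals were 2 of the 18 that overlapped a promoter window and 7 of the 35 that did not. The shares of both classes over all intervals are not given here, so this split shows no preference for either.

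Cyp2d9, a male-predominant testosterone 16-alpha-hydroxylase, showed the largest change, at chr15:82441655-82447393, whose midpoint is 7853 bases before the gene's start. Folds were 19.3 and 22.3 for WT, 29.0 and 23.2 for Cpt2 KO, 7.74 and 12.1 for Ppara KO, and 7.0 and 5.0 for DKO. Every Ppara-null liver was below every Ppara-intact liver, with or without Cpt2. The fall was -1.65 ± 0.19 (SE) on the log2 scale, 3.13-fold (limma adjusted p = 0.000499), and it passed the threshold in all 15 alternative analyses that could be run, the highest limma adjusted p without any 1 library being 0.00376. The promoter interval of the same gene, chr15:82451596-82457969, differed by -0.14 (limma adjusted p = 0.65).

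Cyp2d10, the neighbouring copy, had its called interval at chr15:82416472-82417848, 9966 bases before the gene's start. Its folds were 11.9 and 11.9 for WT, 6.5 and 6.0 for Cpt2 KO, 3.6 and 5.18 for Ppara KO, and 5.12 and 6.33 for DKO. The WT livers stood above the 6 others, which lay between 3.6 and 6.5. The difference for Ppara loss was -0.83 ± 0.19 (limma adjusted p = 0.0173), and it missed the threshold without Cpt2 KO replicate 2, Ppara KO replicate 1 or DKO replicate 1 (highest adjusted p = 0.0751 in limma).

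Cyp2j5, an epoxygenase of arachidonic acid, was called at its promoter, chr4:96661879-96665781. Folds were 20.5 and 14.3 for WT, 16.4 and 13.2 for Cpt2 KO, 9.25 and 12.1 for Ppara KO, and 7.67 and 9.0 for DKO. All Ppara-null livers were below all intact ones (-0.79 ± 0.19, limma adjusted p = 0.0239). Cyp2d26, another CYP2D enzyme, was called downstream of its body at chr15:82783461-82787074. Folds there were 10.9 and 9.88 for WT, 11.0 and 11.9 for Cpt2 KO, 8.24 and 9.62 for Ppara KO, and 5.39 and 5.79 for DKO. The states did not overlap (-0.66 ± 0.18, limma adjusted p = 0.0427), and the DKO livers were the lowest. Both calls rested on the full set of livers: they passed in 2 and 1 of the 8 analyses that each left out 1 library, with a highest limma adjusted p of 0.0884 (without Ppara KO replicate 1) for Cyp2j5 and 0.171 (without Cpt2 KO replicate 2) for Cyp2d26.

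Among the intervals that rose, Cyp3a25, a CYP3A enzyme of the pregnane X receptor group, had its interval at chr5:146017472-146020144, 9190 bases before the start. Folds were 8.0 and 12.4 for WT, 16.3 and 9.87 for Cpt2 KO, 15.2 and 22.4 for Ppara KO, and 20.1 and 22.5 for DKO. Ppara-null livers were the higher ones apart from Cpt2 KO replicate 1, which reached into their range (0.79 ± 0.18, limma adjusted p = 0.0219). Cyp3a13, on the same chromosome, was called at its promoter, chr5:137919513-137923105. Its folds were 11.3 and 7.43 for WT, 24.3 and 16.7 for Cpt2 KO, 17.4 and 22.3 for Ppara KO, and 23.2 and 27.7 for DKO. Only the WT livers stood apart there, and the difference for Ppara loss was 0.69 ± 0.19 (limma adjusted p = 0.0393).

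Cyp17a1, the 17-alpha-hydroxylase of steroid synthesis, rose inside its body at chr19:46667175-46673231. Folds were 8.92 and 12.2 for WT, 13.1 and 12.3 for Cpt2 KO, 14.4 and 16.3 for Ppara KO, and 18.9 and 24.6 for DKO, so the states did not overlap (0.63 ± 0.15, limma adjusted p = 0.0257). Cyp2f2, which activates naphthalene and in liver marks periportal hepatocytes, rose inside its body at chr7:27121083-27127020. Folds were 14 and 11.8 for WT, 11.9 and 10.5 for Cpt2 KO, 16.7 and 20.5 for Ppara KO, and 15.5 and 27.7 for DKO, again without overlap (0.68 ± 0.18, limma adjusted p = 0.0371). Cyp2c55, a CYP2C enzyme of arachidonic acid metabolism, was called at chr19:38998123-38999539, 8188 bases before its start. It had 6.44 and 6.33 for WT, 10.1 and 8.19 for Cpt2 KO, 8.88 and 14.9 for Ppara KO, and 12.5 and 15.3 for DKO. WT livers were lowest and the other states met (0.70 ± 0.19, limma adjusted p = 0.0416).

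These 5 rises were less stable than the Cyp2d9 fall. Each passed in only 2 or 3 of the 8 analyses without 1 library. The highest limma adjusted p was 0.106 for Cyp3a25, 0.158 for Cyp3a13, both without Cpt2 KO replicate 2, 0.0966 for Cyp17a1 and 0.149 for Cyp2f2, both without DKO replicate 2, and 0.16 for Cyp2c55 without Ppara KO replicate 2. With the smallest peak width of each library as a covariate 3 of the 53 passed, those of Cyp2d9, Cyp2d10 and Cyp2j5. The count of 9 became 6 without either WT liver, 4 and 1 without Cpt2 KO replicate 1 and 2, 3 without either Ppara KO liver, and 2 without either DKO liver.

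Averaged over each gene's intervals called in all 8 libraries, 4 of 23 genes passed the test for Ppara loss, against 4.89% of all 11264 genes (1.25% higher and 3.64% lower). Cyp2c55 (0.70 ± 0.15, limma adjusted p = 0.028), Cyp3a13 (0.69 ± 0.17, limma adjusted p = 0.045) and Cyp3a25 (0.56 ± 0.14, limma adjusted p = 0.039) rose and Cyp2d26 (-0.52 ± 0.11, limma adjusted p = 0.0266) fell. Cyp2d9 was at the edge with -0.56 ± 0.15 (limma adjusted p = 0.0505). Without centring on the library median 0 gene means passed. Leaving out 1 library gave 4 without WT replicate 1, 2 without WT replicate 2, 1 without Cpt2 KO replicate 1 or either Ppara KO liver, and 0 without Cpt2 KO replicate 2 or either DKO liver. By subfamily, the 3 CYP3A genes with such intervals averaged 0.54 in Ppara-null and -0.003 in intact livers on the centred log2 scale, and the 4 CYP2D genes -0.17 and 0.14, with overlap between states in both. Cyp17a1 and Por together averaged 0.08 and -0.12, without overlap.

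**Figure D2:**
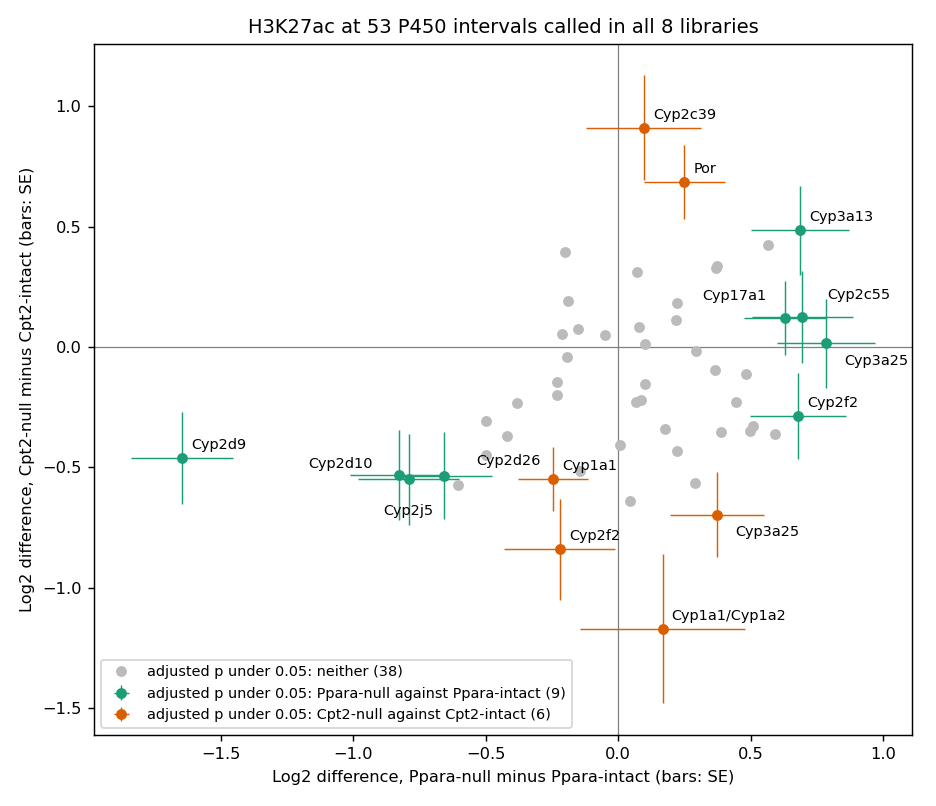
Log2 difference in H3K27ac of Ppara-null minus Ppara-intact (x axis) and of Cpt2-null minus Cpt2-intact livers (y axis) at the 53 P450 intervals called in all 8 libraries, with SE bars on the 15 past a limma adjusted p of 0.05. Cyp2d9 lies farthest to the left at -1.65, and no interval passed for both deletions.

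Cpt2-null livers (Cpt2 KO and DKO) were compared with Cpt2-intact livers (WT and Ppara KO) to ask what the block in fatty acid oxidation altered. H3K27ac fell at 4 P450 intervals, near Cyp1a1, Cyp1a2, Cyp2f2 and Cyp3a25, and rose at 2, near Por and Cyp2c39. These 6 of 53 compare with a background of 12.3% of all intervals tested (4.9% higher and 7.38% lower). The median difference over the 53 was -0.22 on the log2 scale, with 34 of them below 0, against -0.01 over all intervals. The values are centred on each library's median, and without centring the median of all intervals moved by 0.25 in Cpt2-null livers, so a fall here is relative to the other intervals. Without centring, 8 of the 53 passed, 7 higher and 1 lower: both rises and the fall between the CYP1 genes passed, while the falls near Cyp1a1 (limma adjusted p = 0.264), Cyp2f2 (limma adjusted p = 0.0566) and Cyp3a25 (limma adjusted p = 0.116) did not. The H3K27ac marker sums of Kupffer, endothelial, stellate and lymphoid cells given above were higher with Cpt2 loss, and their part in these differences was not tested. The smallest peak width of a library was 217 to 223 bases in Cpt2-null and 198 to 210 in intact livers, so it cannot be told apart from Cpt2 state, and with it as a covariate 0 of the 53 intervals passed. In bulk liver, fewer cells of a type and less acetylation per cell cannot be told apart.

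Por was called at chr5:135687844-135688857, whose midpoint is 795 bases before a start of the gene. Folds were 9.46 and 9.58 for WT, 19.8 and 17.7 for Cpt2 KO, 12.2 and 11.3 for Ppara KO, and 22.4 and 22.4 for DKO. All Cpt2-null livers were above all intact ones (0.69 ± 0.15, limma adjusted p = 0.0163). The other 8 Por intervals called in all libraries did not pass, and their differences ran from -0.56 to 0.34. Cyp2c39, a CYP2C enzyme, was called at the promoter of its downstream start, chr19:39508458-39513324. Folds were 5.38 and 13.4 for WT, 25.4 and 21.3 for Cpt2 KO, 12 and 10.6 for Ppara KO, and 18.3 and 24 for DKO, so the states did not overlap although the WT livers differed from each other (0.91 ± 0.22, limma adjusted p = 0.0197).

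The CYP1 genes, the classical targets of the aryl hydrocarbon receptor, lie side by side on chromosome 9. An interval beyond the end of Cyp1a1, chr9:57708175-57710943, inside the neighbouring gene Edc3, had folds of 30.3 and 34.6 for WT, 21.3 and 16.7 for Cpt2 KO, 16.7 and 23.5 for Ppara KO, and 22 and 24 for DKO. WT livers were highest and the 6 others lay between 16.7 and 24 (-0.55 ± 0.13, limma adjusted p = 0.0207). Between Cyp1a2 and Cyp1a1, the interval chr9:57686541-57689172 had 12.6 and 11.9 for WT, 3.30 and 8.57 for Cpt2 KO, 10.9 and 12 for Ppara KO, and 4.73 and 11.9 for DKO. Replicate 1 was low in both Cpt2-null genotypes, while DKO replicate 2 lay among the intact livers (-1.17 ± 0.31, limma adjusted p = 0.0287). Averaged over their intervals, Cyp1a1 differed by -0.50 ± 0.15 (limma adjusted p = 0.0528) and Cyp1a2 by -0.52 ± 0.17 (limma adjusted p = 0.0743). The mean of both genes was -0.60 in Cpt2-null and -0.09 in Cpt2-intact livers on the centred log2 scale. The states did not overlap but nearly met, with -0.31 in Cpt2 KO replicate 2 and -0.29 in Ppara KO replicate 1. The interval between the genes counts in both gene means.

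Cyp2f2 at its promoter, chr7:27117625-27120159, had folds of 9.77 and 12.1 for WT, 6.67 and 5.38 for Cpt2 KO, 9.50 and 6.43 for Ppara KO, and 7.04 and 5.86 for DKO. Ppara KO replicate 2 fell among the Cpt2-null livers (-0.84 ± 0.21, limma adjusted p = 0.0228). For Ppara loss the difference at this promoter interval was also below 0, at -0.22. At the other Cyp2f2 interval, inside the body, which rose with Ppara loss, the difference for Cpt2 loss was -0.29. Cyp3a25, at the start of its body, chr5:146007747-146009579, had 16.1 and 14.3 for WT, 10.3 and 9.20 for Cpt2 KO, 18 and 16.8 for Ppara KO, and 16.8 and 13.2 for DKO. The Cpt2 KO livers were lowest and the DKO livers met the intact ones (-0.70 ± 0.18, limma adjusted p = 0.0243).

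None of the 6 passed in every analysis without 1 library. Por, Cyp2c39 and the Cyp1a1 interval beyond the gene's end passed in 5 of 8, Cyp2f2 in 3, and Cyp3a25 and the interval between the CYP1 genes in 2, with a highest limma adjusted p of 0.0598 for Por (without Cpt2 KO replicate 1) and 0.105 for the latter (without Cpt2 KO replicate 1). The count of 6 became 5 without either WT liver, 2 and 3 without Cpt2 KO replicate 1 and 2, 3 and 1 without Ppara KO replicate 1 and 2, and 4 and 2 without DKO replicate 1 and 2. Of the 23 gene means, Cyp2c39 (0.49 ± 0.14, limma adjusted p = 0.0485) rose and Cyp2d26 (-0.45 ± 0.11, limma adjusted p = 0.0336) fell, against 9.57% of all genes (4.15% higher and 5.42% lower). The Cyp2c39 mean also takes in an interval over the promoter of Cyp2c38, which differed by 0.07. Without centring 3 passed, all higher, and Cyp2d26 did not (limma adjusted p = 0.384). The number of gene means called was 2 without either WT liver and 0 without any 1 of the other 6 libraries.

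**Figure D3:**
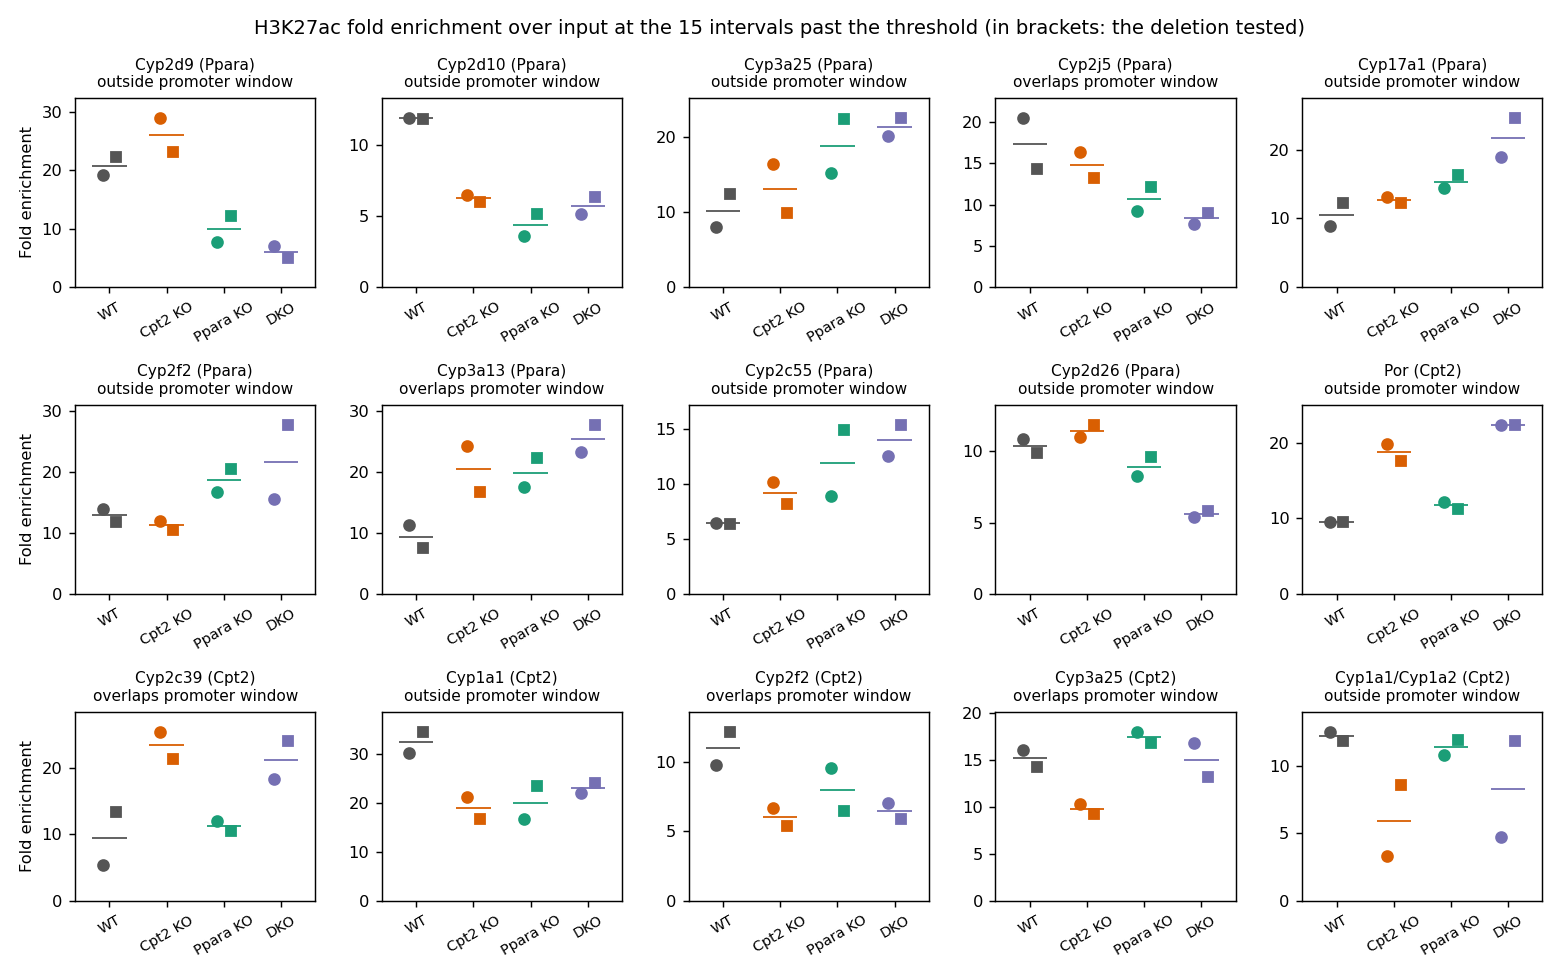
H3K27ac fold enrichment over input in each of the 8 livers (points, circles for replicate 1 and squares for replicate 2; bars are the means of 2 livers) at the 9 intervals past the threshold for Ppara loss and the 6 past it for Cpt2 loss; every axis starts at 0. The Ppara-null livers lie below the others at Cyp2d9, and the Cpt2-null livers above the others at Por and Cyp2c39.

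The direct comparison of DKO with WT, 2 livers against 2, called 16 of the 53 intervals, 7 higher and 9 lower, in 14 genes, against a background of 20.2% of all intervals (8.62% higher and 11.5% lower). Without centring 15 passed, 10 higher and 5 lower. Its largest differences were the falls of Cyp2d9 by 2.11 on the log2 scale (4.31-fold, limma adjusted p = 0.00111), Cyp2d10 by 1.36 (limma adjusted p = 0.00485) and Cyp2j5 by 1.34 (limma adjusted p = 0.00572), at the intervals given above. Cyp3a13 rose most, by 1.17 at its promoter (limma adjusted p = 0.00919). Cyp2d26 was lower at 3 intervals: besides the downstream interval (-1.19, limma adjusted p = 0.0077), the promoter interval chr15:82793484-82796916 had 16.2 and 18.1 for WT, 16.8 and 15.5 for Cpt2 KO, 12.6 and 13.9 for Ppara KO, and 11.0 and 10.9 for DKO (-0.95, limma adjusted p = 0.0095), and the interval in the body fell by 0.79 (limma adjusted p = 0.0232). At the Cyp2d26 promoter the difference was -0.50 for Ppara loss (limma adjusted p = 0.061) and -0.45 for Cpt2 loss (limma adjusted p = 0.067), each over both states of the other gene.

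Cyp1a2, which metabolizes caffeine, had a further interval past its end, chr9:57668345-57670236, with 12.4 and 18.3 for WT, 7.53 and 10 for Cpt2 KO, 6.71 and 7.75 for Ppara KO, and 7.84 and 8.5 for DKO (-1.18, limma adjusted p = 0.0102). WT livers were again above all others. Cyp2a5, the coumarin hydroxylase, rose at chr7:26832444-26833525, 2355 bases before its start, from 7.0 and 8.0 for WT to 14 and 23.8 for DKO, with 14.8 and 10 for Cpt2 KO and 11.0 and 11.8 for Ppara KO (0.99, limma adjusted p = 0.0198). With the smallest peak width as a covariate 0 passed. The count of 16 became 5 without DKO replicate 2 and 9 without WT replicate 2, and Cyp2d9, Cyp2d10, Cyp2j5 and the downstream Cyp2d26 interval passed in all 8 analyses without 1 library. The interaction of the deletions, the Cpt2 effect without Ppara minus that with Ppara, was past the threshold at 0 of the 53 intervals in limma (8 at an unadjusted p under 0.05; 1 of all 18281, 0.00547%), and it stayed at 0 in every analysis without 1 library. No difference in the effect of one deletion between states of the other was shown at any P450 interval.

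Intervals that appeared or vanished with a deletion were counted where at least 3 of the 4 livers of one state and none of the other had a peak. For Ppara this held at 4 of 172 H3K27ac intervals, against 3.36% of all intervals, 2 gained (1.63% of all) and 2 lost (1.73%). Cyp2c55 gained a peak 1413 bases before its start, chr19:39005363-39005849, with folds of 4.86 and 6.0 for Ppara KO and 4.86 and 6.14 for DKO and none in the 4 intact livers. Cyp17a1 gained one 7069 bases from its body, chr19:46679562-46680576, with 4.14 and 3.75 for Ppara KO and 10.6 and 7.71 for DKO. Peaks near Cyp2d22 (6.22, 10.5 and 7.73) and Cyp2b9 (4.0, 9.33 and 6.57) were called in WT replicate 2 and both Cpt2 KO livers and in no Ppara-null liver. The count of 4 became 2 without Cpt2 KO replicate 2.

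For Cpt2 the rule held at 7 intervals, against 6.99% of all, 2 gained (4.5% of all) and 5 lost (2.49%). Cyp2f2 lost the peak at the start of its body, chr7:27120256-27120875, which had 13.5 and 12.7 for WT, 10.7 and 10.7 for Ppara KO and none in the 4 Cpt2-null livers. Cyp3a25 lost 2 peaks inside its body, called in 4 and 3 of the 4 intact livers, beside the interval that fell. Cyp2u1, a fatty acid hydroxylase, lost one with 7.40 and 3.57 for WT and 8.44 and 4.43 for Ppara KO, and Por lost one with 5.85 and 6.27 for WT and 4.79 in Ppara KO replicate 2. Cyp1a1 gained one 3282 bases before a start, chr9:57693895-57694768, with 6.80 and 7.0 for Cpt2 KO and 7.2 and 3.75 for DKO, and Cyp3a11, the main CYP3A enzyme of mouse liver, gained one in its body, chr5:145867685-145868098, with 5.46 and 5.82 for Cpt2 KO and 7.62 and 5.93 for DKO. Over all P450 intervals, 92 to 107 had a peak in the Cpt2-intact livers and 82 to 91 in the Cpt2-null ones, while the share of all intervals of the series was higher in the Cpt2-null livers (53.8% to 59.0%) than in the intact ones (48.8% to 52.2%).

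**Figure D4:**
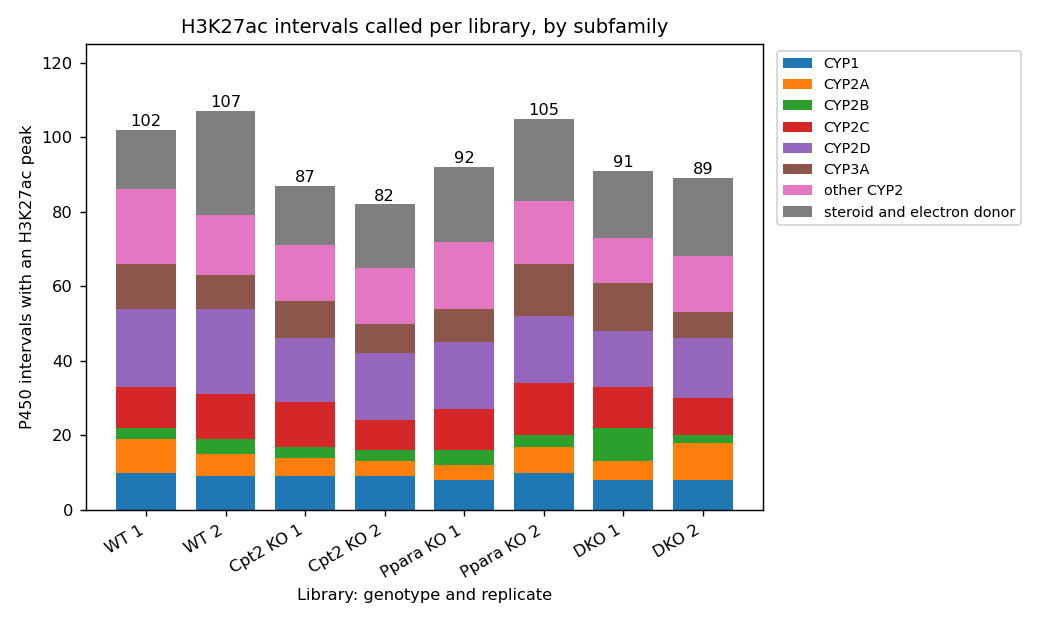
Number of the 172 P450 intervals with an H3K27ac peak in each library, stacked by subfamily, with the total above each bar. The 4 Cpt2-null livers hold 82 to 91 and the 4 intact ones 92 to 107.

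The CYP2B genes, targets of the constitutive androstane receptor, had no interval called in all 8 libraries and so no test. Cyp2b10 had 13 intervals, of which 3, 3, 4 and 3 were called in the WT and Ppara KO livers, 9 and 2 for DKO and 0 in both Cpt2 KO livers. Its interval 9059 bases upstream, chr7:25887624-25889574, had folds of 6.47 in WT replicate 1, 5.42 and 8.75 for Ppara KO and 13.2 and 6.85 for DKO. Cyp2b13 showed the reverse: its 1 interval, chr7:26054571-26055765, was called only in the Cpt2 KO livers, with 10.2 and 11.5. Cyp2b9 had 2 intervals, both called in both Cpt2 KO livers and 1 of them also in WT replicate 2. Cyp2b9 and Cyp2b13 are the near-identical copies noted above, so their signals cannot be taken as separate. Cyp2c29, a CYP2C gene of the same receptor group, had 12 and 13.8 for WT at its promoter interval, chr19:39287014-39288878, 9.35 and 7.5 for Ppara KO, 4.12 in Cpt2 KO replicate 1 and 7.57 in DKO replicate 1, and no call in the second replicate of those genotypes. Cyp2c70, which makes muricholic acids, had its peak just upstream of the start in 7 of the 8 livers, and 1 of the 2 Cyp2c37 intervals was likewise called in 7, with Cpt2 KO replicate 2 missing in both. Cyp2a4, a steroid hydroxylase of female liver, had a single peak, in WT replicate 2, with a fold of 4.0.

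H3K4me1 was found near 32 of the 33 genes, all but Cyp3a41a. Of the 225 intervals, 65 (28.9%), in 20 genes, were called in all 8 libraries, against 19.0% of all intervals. None of the 65 passed the limma threshold for Ppara loss (13 at an unadjusted p under 0.05; 0.128% of all 19526 called, 0.0461% higher and 0.0819% lower), Cpt2 loss (4 unadjusted; 0% of all), the interaction (2 unadjusted; 0% of all) or DKO against WT (12 unadjusted; 0.133% of all, 0.0973% higher and 0.0358% lower). Leaving out Cpt2 KO replicate 1 gave 4 calls for Ppara loss, and leaving out either Cpt2 KO liver gave 5 for DKO against WT, where leaving out Ppara KO replicate 2 gave 1. Of the 20 gene means 0 passed for either deletion in limma (3 and 0 unadjusted), against 0.0122% and 0% of all genes.

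Among single H3K4me1 intervals the smallest adjusted p for Ppara loss was at Cyp2d10, and among gene means at Cyp2c29 (limma adjusted p = 0.277). The interval counted for Cyp2d10, chr15:82392506-82394805, lies outside that gene's body, at the neighbouring P450 gene Cyp2d11, which is not a member. Its folds were 14.4 and 15.8 for WT and 12.2 and 10.8 for Cpt2 KO. They were 12 and 8.73 for Ppara KO and 6.30 and 6.33 for DKO (-0.72 ± 0.19, limma adjusted p = 0.12). Over the acetylated region upstream of Cyp2d9, the interval chr15:82441118-82445696 had 11.4 and 8.47 for WT, 14.5 and 8.36 for Cpt2 KO, 8.75 and 7.35 for Ppara KO, and 6.92 and 4.07 for DKO. Ppara KO replicate 1 reached into the intact range, and the difference of -0.68 did not pass (limma adjusted p = 0.229), where the H3K27ac difference was -1.65. At Cyp2d10's upstream region the differences had opposite signs: H3K4me1 at chr15:82416499-82417985 was 4.38 and 3.85 for WT, 4.19 and 5.20 for Cpt2 KO, 6.82 and 6.10 for Ppara KO, and 6.15 and 8.22 for DKO (0.63 ± 0.20, limma adjusted p = 0.184), while H3K27ac fell there.

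Peaks of H3K4me1 that appeared or vanished with Ppara were 5 of 225, against 4.81% of all intervals (1.96% gained and 2.84% lost): Cyp2d10 gained 1, and Cyp2d22, Cyp2d26, Cyp2u1 and Cyp3a11 lost 1 each. With Cpt2 they were 9, against 2.71% of all (1.41% gained and 1.3% lost). Cyp2a5 gained 3 and Cyp2a4 gained 1, while Cyp2c55 lost 3, all called in both WT livers and Ppara KO replicate 1, and Cyp2c54 and Cyp2f2 lost 1 each. The Cyp2a4 gain was called in all 4 Cpt2-null livers (4.43 and 7.11 for Cpt2 KO, 8.49 and 4.57 for DKO). The Cyp2a5 gains were called in Cpt2 KO replicate 1 and both DKO livers, and 1 of them, chr7:26832552-26832897, lies under the H3K27ac interval that was higher in DKO than in WT. The H3K4me1 replicates of Cpt2 KO agreed least, with 55.0% of replicate 2 peaks overlapping replicate 1 against 71.6% to 76.9% in the other genotypes. Without 1 library the Ppara count ran from 2, without either WT liver or Cpt2 KO replicate 2, to 22, without Cpt2 KO replicate 1 (12 without Ppara KO replicate 1), and the Cpt2 count from 5, without either WT liver, to 18 and 19, without Cpt2 KO replicate 2 and Ppara KO replicate 2.

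H3K9ac was measured in 1 WT and 1 Cpt2 KO liver, with positions but no enrichment values, so no test was possible. Of 118 H3K9ac intervals at 23 of the 33 genes, 60 were called in both livers, 52 (44.1%) in WT only and 6 (5.08%) in Cpt2 KO only. Over all 46568 intervals these shares were 20.8% and 23.9%. Por held 33 of the 118, nearly all in both livers (30 for WT and 31 for Cpt2 KO), and without Por the shares were 58.8% of 85 and 3.53%. The 5 CYP2C genes with an interval, Cyp2c29, Cyp2c38, Cyp2c39, Cyp2c50 and Cyp2c54, had 7 calls between them in WT and none in Cpt2 KO; an interval near 2 genes counts under each. Cyp3a11 had 4 for WT and 0 for Cpt2 KO, Cyp17a1 6 and 1, Cyp2f2 7 and 2, and Cyp2e1 12 and 6.

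The same shares in other lists, from the same 2 livers, stand beside this. Of the 80 intervals of the 6 hepatocyte markers 55.0% were in WT only and 1.25% in Cpt2 KO only, and of the 15 of the Kupffer markers 0% and 93.3%. Periportal genes had 63.5% and 4.76%, pericentral genes 47.1% and 1.96%, and the 29 other P450 genes of families 1 to 3 had 36.0% and 20%. Growth hormone signalling genes had 20.7% and 24.1%, and genes known to be bound by Ppara 17.0% and 34.0%. The part of cell makeup in these shares was not tested. Of the 53 H3K27ac intervals called in all 8 libraries 39 overlapped an H3K9ac interval, against 27 of the other 119. The same overlap over all H3K27ac intervals is not given here, so this contrast is not read as a trait of the P450 genes.

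**Figure D5:**
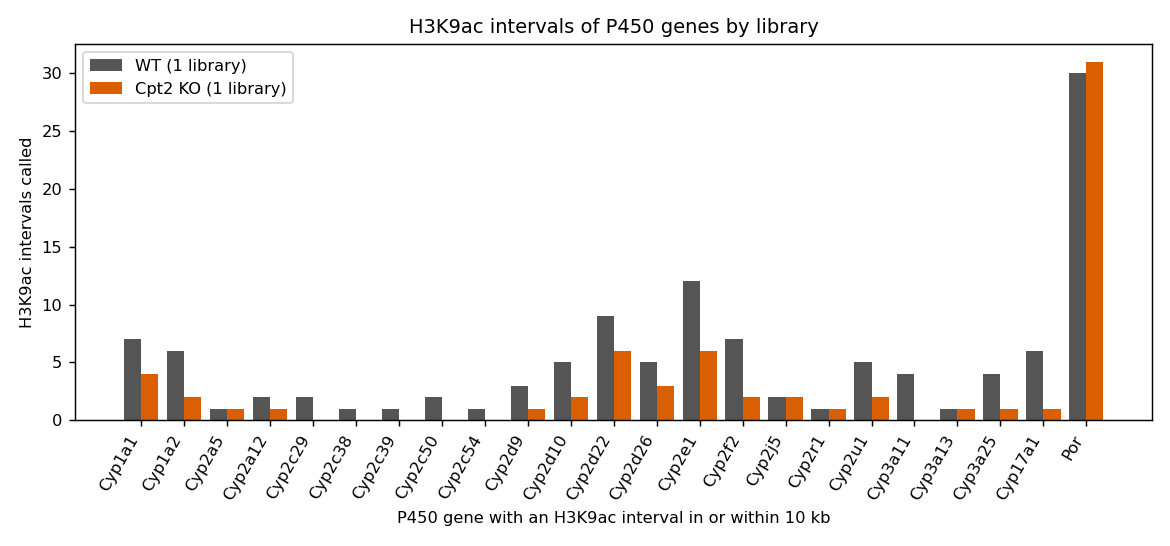
Number of H3K9ac intervals called in the WT (grey) and the Cpt2 KO liver (orange), 1 library each, for the 23 P450 genes with an interval. Por has nearly equal bars of 30 and 31, and Cyp3a11 has 4 for WT and 0 for Cpt2 KO.

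The regulators and partners of these enzymes were examined as lists of gene means of H3K27ac. Over all 11264 genes, 4.89% passed for Ppara loss (1.25% higher and 3.64% lower). For Cpt2 loss 9.57% passed (4.15% higher and 5.42% lower). Of 10 xenobiotic receptors and partners, 0 passed for Ppara loss (4 unadjusted; lowest limma adjusted p = 0.0675) and 3 for Cpt2 loss: Nr1i3, the constitutive androstane receptor, by 0.43 ± 0.11 (limma adjusted p = 0.0306) and Ahrr, the repressor of the aryl hydrocarbon receptor, by 0.51 ± 0.14 (limma adjusted p = 0.0411) rose, and Nr1h4, the bile acid receptor, fell by 0.40 ± 0.11 (limma adjusted p = 0.0472). The Nr1i3 rise was not seen in both states of Ppara: its centred log2 means were 0.82 and 0.99 for WT, 1.88 and 2.02 for Cpt2 KO, 1.61 and 1.63 for Ppara KO, and 1.57 and 1.30 for DKO. Without Ppara, both DKO livers lay below both Ppara KO livers, and this difference between the states was not tested. The median difference of the 10 was -0.07, against 0.00 over all genes. Of 13 genes of electron transfer, heme supply and phase I partners, Fmo1, a flavin monooxygenase, fell with Ppara loss (-0.57 ± 0.14, limma adjusted p = 0.0397). With Cpt2 loss Nqo1, a quinone reductase, rose (0.61 ± 0.13, limma adjusted p = 0.0207) and Ephx1, the microsomal epoxide hydrolase, fell (-0.47 ± 0.12, limma adjusted p = 0.0377). At Nqo1 the WT livers (-0.99 and -0.92) stood apart from all others (-0.18 to 0.27). Among 10 tested of the 29 other P450 genes of families 1 to 3, Cyp2t4 was called higher in both comparisons. It differed by 0.48 ± 0.11 for Ppara loss (limma adjusted p = 0.0286) and 0.72 ± 0.11 for Cpt2 loss (limma adjusted p = 0.00913). Its centred log2 means were 0.61 and 0.71 for WT and 1.64 and 1.87 for Cpt2 KO. They were 1.61 and 1.42 for Ppara KO and 1.77 and 1.95 for DKO, so only the WT livers stood apart.

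Genes of growth hormone signalling, which sets the sex pattern of many P450 genes, fell with Cpt2 loss at 4 of 8, against 5.42% of all genes: Stat5a (-0.68 ± 0.14, limma adjusted p = 0.0178), Socs2 (-1.03 ± 0.22, limma adjusted p = 0.0191), Onecut1 (-1.0 ± 0.25, limma adjusted p = 0.0321) and Ghr, the receptor (-0.78 ± 0.20, limma adjusted p = 0.0344). Their median was -0.54, and none of the 8 passed for Ppara loss (3 unadjusted in limma). Stat5a, Socs2 and Ghr did not overlap between Cpt2 states. Onecut1 did: Ppara KO replicate 1 (-0.99) lay below Cpt2 KO replicate 2 (-0.50), and the WT livers stood highest (0.26 and 0.77). Socs2 and Onecut1 rested on 1 interval each. Calls in the gene lists are given for centred values of all 8 livers only, without the alternative analyses given for the P450 genes. The shares over all genes given above apply to each list, and counts of 1 or 2 genes are not read as a trait of a list. Of 10 male-biased genes tested, Slco1a1, an organic anion transporter (-1.30 ± 0.27, limma adjusted p = 0.0187), and Selenbp2 (-0.63 ± 0.13, limma adjusted p = 0.0168) fell with Cpt2 loss, and Selenbp2 rose with Ppara loss (0.56 ± 0.13, limma adjusted p = 0.0303). Only 3 of 12 female-biased genes could be tested and none passed for either deletion in limma (2 and 0 unadjusted). By lobular zone, the pericentral genes Tbx3 (-0.92 ± 0.14, limma adjusted p = 0.00497) and Slc1a2 (-0.90 ± 0.18, limma adjusted p = 0.0177) fell with Ppara loss, 2 of 11 tested, while 1 of 9 periportal genes, Sds (0.49 ± 0.12, limma adjusted p = 0.0443), rose. The medians of the pericentral and periportal lists for Ppara loss were -0.22 and 0.38, against -0.04 over all genes. With Cpt2 loss 1 pericentral gene, Rgn, fell (-0.44 ± 0.11, limma adjusted p = 0.0291) and no periportal gene passed in limma (5 unadjusted). Genes known to be bound by Ppara were the reference: Cyp4a10 (-1.67 ± 0.16, limma adjusted p = 0.000379) and Acaa1b (-1.09 ± 0.13, limma adjusted p = 0.00196) fell with Ppara loss, 2 of 4 tested, against -1.65 at the single interval upstream of Cyp2d9.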

How the data were processed

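Peaks were deposited as one list per library for H3K27ac and H3K4me1 (2 livers in each of 4 genotypes) and as positions in series tables for H3K9ac (1 WT and 1 Cpt2 KO liver). Reads were aligned with BWA to mm10 and peaks were called with MACS2 2.1.0, per the submitters' processing notes. The deposited fold is the ratio of ChIP to input at a peak's summit, and each peak also carries the deposited −log10 p and −log10 q of the caller. Of the series tables, 24 tracks were not used. One H3K27ac library (Ppara KO, replicate 2) names another build in its peak labels; it was used as mm10, since 83.9% of its peaks overlapped those of replicate 1 (bedtools 2.31.1).

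Regions were the consensus intervals that the authors deposited for each mark; how they were built is not given in the sources used here. In each library an interval took the log2 of the highest fold among the peaks overlapping it by at least 1 base, less the library's median over intervals called in all 8. Intervals called in all 8, and means over each gene's intervals, were fitted with limma 3.58.1 (R 4.3.3, trended variance, 4 genotype means). Contrasts were Ppara-null minus Ppara-intact, Cpt2-null minus Cpt2-intact, their interaction and DKO minus WT, with Benjamini-Hochberg adjustment over all intervals or genes and a threshold of 0.05. The same procedure was tested on simulated data. Genes were assigned with RefSeq (GRCm38.p6), in Python 3.11.15 with pandas 2.3.3.

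The members and the gene lists were chosen with earlier results of these data known. Members were given in every library where an interval or gene mean passed, where a peak was present in at least 3 of 4 livers of one state and 0 of the other, or where they led a subfamily; other lists were given by counts and up to 4 genes with the smallest p. Depth in reads is unknown, so no counting error is given.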

Additional observations from a re-analysis of the deposited data

How the results depend on the processing

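Of the 37 interval and gene-mean calls, all 37 kept their direction and threshold with an overlap of at least 50% of the peak, 36 did with quantile normalization, 32 with uncalled libraries filled and 24 without centring, which lost 13. Leaving out 1 library kept 152 of 296 and lost 144, with no change of direction. With the smallest peak width as a covariate 3 of 37 remained, and the Cyp2f2 promoter difference for Cpt2 loss became 0.0201 and that of Cyp3a13 for DKO against WT -0.0106; the cause was not tested. Counts of H3K27ac intervals under that covariate were 3 for Ppara loss, 0 for Cpt2 loss and 0 for DKO against WT, and of gene means 1 and 0. With uncalled libraries filled with their lowest fold, which adds intervals, they were 14, 18 and 29, with 6 gene means for Cpt2 loss. Without centring 0 gene means passed for Ppara loss. With a 1 kb window, which leaves fewer intervals, counts were 4 intervals and 2 gene means for Ppara loss and 7 intervals for DKO against WT; appearing or vanishing peaks with Ppara were 0 for H3K27ac and 2 for H3K4me1, and with Cpt2 3 for H3K4me1. With peaks of −log10 q of at least 10, those with Ppara were 2 for H3K27ac and 8 for H3K4me1.

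Without 1 library, H3K27ac interval counts ran from 1 to 6 for Ppara loss, 1 to 5 for Cpt2 loss, 5 to 15 for DKO against WT and stayed 0 for the interaction; gene means ran from 0 to 4 and 0 to 2. Appearing or vanishing H3K27ac peaks ran from 2 to 6 with Ppara and 5 to 9 with Cpt2, and H3K4me1 ones from 2 to 22 and 5 to 19. H3K4me1 interval counts ran from 0 to 4 for Ppara loss and 0 to 5 for DKO against WT, and stayed 0 for Cpt2 loss, the interaction and both sets of gene means.

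Replicate numbers did not pair the livers: correlations of same-numbered deviations ran from -0.49 to 0.17. With the replicate number as a block, H3K27ac counts were 9 for Ppara loss, 8 for Cpt2 loss, 18 for DKO against WT and 0 for the interaction, gene means 4 and 3, and H3K4me1 counts 0; of the 37 calls the block lost 1, the Cyp2c39 gene mean. With 2 livers per genotype and fold values from peak calls, differences at intervals missing from any library were not tested.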
